A study of Mus musculus with 5 samples.

Results

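The EGF receptor family was described here in colon tumors of 5 mice through 10 genes, namely the receptor genes Egfr, Erbb2 and Erbb3 and the ligand genes Areg, Ereg, Hbegf, Tgfa, Btc, Epgn and Nrg1. They were taken from the 52143 genes of the deposited table by symbol, and each of the 10 symbols was found once. The family consists of receptor tyrosine kinases that pair with each other after a ligand binds and then signal through the RAS/ERK and PI3K/AKT routes. ErbB2 has no known ligand of its own and ErbB3 has a weak kinase, so both act mainly as partners. The ligands are made as membrane-anchored precursors that ADAM proteases cut free. In the gut, EGF receptor ligands sustain crypt growth and help the epithelium to close wounds such as those left by colitis.

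RNA-Seq was performed on tumors from 2 Control mice (replicates 1 and 4) and 3 SIGLEC12 mice (replicates 2, 3 and 4), female and 8 weeks old at the start. All 5 mice carried Villin1-Cre-ERT (written Villin-Cre-RT for the controls in the labels), a Cre recombinase driven by the intestinal epithelial villin promoter and activated by tamoxifen. The SIGLEC12 mice were in addition heterozygous for human SIGLEC12 behind a CAG promoter in the ROSA26 locus, where Cre removes a loxP-flanked EGFP stop cassette, and the controls were littermates without it. Both groups received tamoxifen (10 mg/ml) for 5 days, azoxymethane (AOM, a carcinogen) at 10 mg/kg and then 4 cycles of 2.0% dextran sodium sulfate (DSS, which injures the colon epithelium) for 5 days each with 14 days of recovery, and tumors were taken on day 87. The level of the human transgene was not analysed here, nor was a further Control mouse, since the series describes 3 mice per condition. The comparison asks how epithelial Siglec-XII, the protein that SIGLEC12 encodes, alters the tumors.

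Values are the authors' log2(TPM + 1), where TPM is a transcript abundance per length relative to the total of its sample, unless TPM itself is named. Errors are SD between mice, and read depth is unknown. Protein-coding genes took between 5.70% and 6.73% of all TPM in Control and between 8.75% and 9.72% in SIGLEC12, and the median log2 fold change of the 10338 tested genes was 0.38. Each difference is therefore given as deposited and again with each sample brought to an equal sum of protein-coding TPM, called rescaling here, which brought that median to 0.01. The tumor pieces held both columnar and squamous epithelium. All 14 columnar colon markers and all 12 squamous markers reached at least 1 TPM in some sample. Control replicate 1 stood apart, with the 14 columnar markers summing to 462 TPM against 1309 to 2107 TPM in the other 4 samples, and the 12 squamous markers to 3139 TPM against 501 to 1200 TPM. As deposited, it was the lowest of the 5 samples for 70.7% of tested gene symbols, and for all 9 tested members of the family. After rescaling, SIGLEC12 replicate 3 was instead the lowest for Egfr, Erbb2, Hbegf and Nrg1.

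The 10 genes covered a wide range of levels. In the order of their mean log2(TPM + 1) over the 5 samples they were Erbb3 (3.40), Erbb2 (2.87), Areg (2.40), Egfr (2.30), Hbegf (2.08), Tgfa (1.50), Btc (1.18), Nrg1 (0.89), Ereg (0.83) and Epgn (0.06). Erbb3 exceeded Erbb2 in 5 of 5 samples, Tgfa exceeded Btc in 5 of 5 and Btc exceeded Nrg1 in 5 of 5. Neighbours in the middle of this order were not separated. Erbb2 exceeded Areg in 3 of 5 samples, with a mean difference of 0.47 ± 1.21 (SD, n = 5). Areg exceeded Egfr in 3 of 5, Egfr exceeded Hbegf in 2 of 5 and Nrg1 exceeded Ereg in 3 of 5, each with a mean difference under its SD. Of these genes 9 entered the test, which required 1 TPM in at least 2 samples, and Epgn did not. Btc reached 1 TPM in 3 SIGLEC12 and 0 Control samples, and Nrg1 in 2 SIGLEC12 and 0 Control samples, so both passed through the group in which they were higher.

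**Figure D1:**
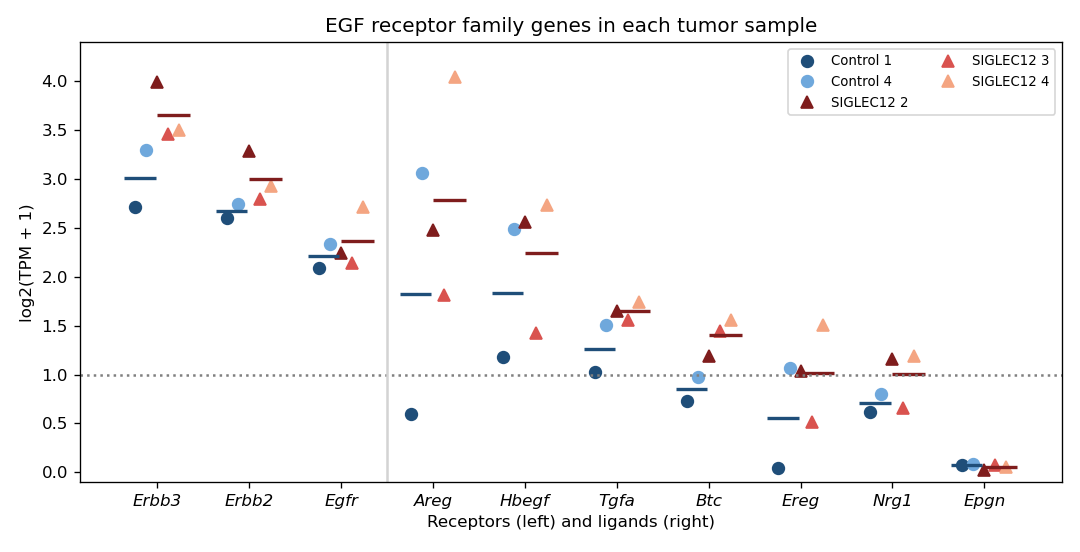
Level of each of the 10 genes as log2(TPM + 1) on the vertical axis, with 1 point per mouse (circles for the 2 Control samples, triangles for the 3 SIGLEC12 samples) and a short bar at each group mean. The dotted line marks 1 TPM, which Epgn does not reach, and the points of Areg spread from 0.59 to 4.05.

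No member of the family passed the threshold between SIGLEC12 and Control tumors. With limma and Benjamini-Hochberg adjustment over 10338 genes, 0 of the 9 tested members had an adjusted p under 0.05 with a change of at least 2-fold, against 0% of all tested genes. At an unadjusted limma p of at most 0.05, 1 of the 9, Btc, was higher in SIGLEC12, against 33.4% of all tested genes, and at that p with at least 2-fold there were 0, against 3.97%. All 9 were higher on average in SIGLEC12 as deposited, as were 9016 of the 10338 tested genes, with a median log2 fold change of 0.40 beside the 0.38 of all genes. After rescaling 7 of the 9 were higher on average, as were 5280 of the 10338, with a median of 0.05. The groups did not overlap in 4 of the 9 as deposited (Erbb2, Erbb3, Tgfa and Btc, with SIGLEC12 above), against 54.1% of all tested genes, and in 1 of the 9 after rescaling (Btc), against 15.6%. No tested member lay wholly below Control after rescaling, against 16.8%. The shares of members that passed the unadjusted p or did not overlap were thus not above the background. With 9 genes, their distance from it is not read as a result about the family.

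**Figure D2:**
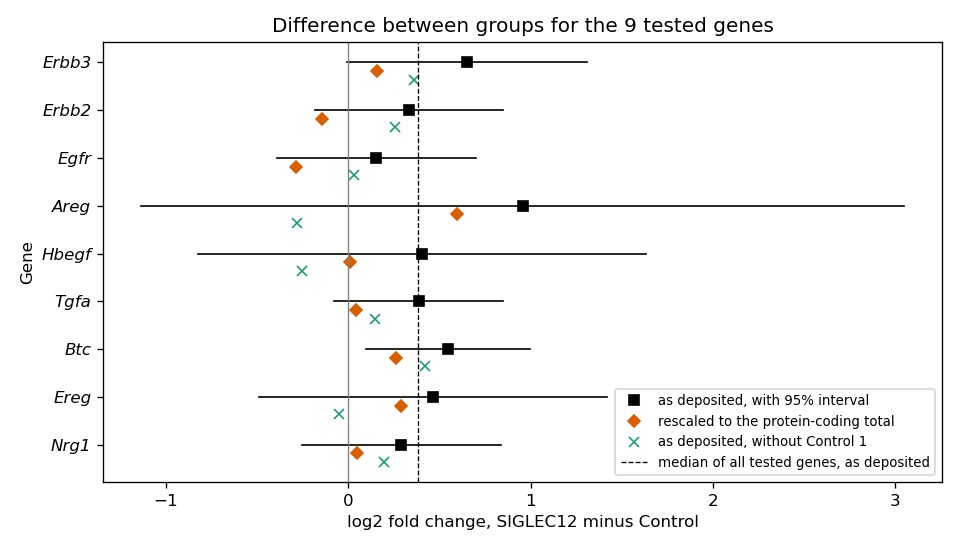
Log2 fold change of SIGLEC12 minus Control for the 9 tested genes, as deposited with its 95% interval (squares), after rescaling (diamonds) and as deposited without Control replicate 1 (crosses). The dashed line is the median of all tested genes, 0.38, and 8 of the 9 intervals include 0, Btc being the exception.

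Among the receptors, Erbb3, the partner that recruits PI3-kinase, was the most abundant in every sample. Erbb3 (chromosome 10, 128567523 to 128589652, minus strand) stood at 2.72 and 3.29 in Control replicates 1 and 4 and at 3.996, 3.46 and 3.51 in SIGLEC12 replicates 2, 3 and 4. All 3 SIGLEC12 values lay above both Control values, but SIGLEC12 replicate 3 was nearer to Control replicate 4 than the Control samples were to each other. The means were 3.01 ± 0.41 (SD, n = 2) and 3.66 ± 0.30 (SD, n = 3), a log2 fold change of 0.65 (SE 0.27, adjusted p = 0.149 in limma). It was 0.16 after rescaling (adjusted p = 0.787 in limma), where the groups overlapped, and 0.36 as deposited without Control replicate 1.

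Erbb2 (chromosome 11, 98412470 to 98437716, plus strand), the receptor without a ligand, was 2.60 and 2.75 in Control replicates 1 and 4 and 3.29, 2.80 and 2.93 in SIGLEC12 replicates 2, 3 and 4. The groups did not overlap, although SIGLEC12 replicate 3 lay close to Control replicate 4. The log2 fold change of 0.33 (SE 0.21, adjusted p = 0.282 in limma) lay below the median of all genes, and it turned to -0.14 after rescaling (adjusted p = 0.749 in limma). Egfr (chromosome 11, 16752203 to 16918158, plus strand), which binds most of the ligands listed here, was 2.09 and 2.33 in Control and 2.24, 2.14 and 2.72 in SIGLEC12 replicates 2, 3 and 4. These groups overlapped, and Egfr had the smallest change of the 3 receptors. It was 0.15 as deposited (SE 0.23, adjusted p = 0.614 in limma) and -0.29 after rescaling (adjusted p = 0.512 in limma), with a 95% interval of -0.39 to 0.70 as deposited.

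Ratios within a sample do not depend on the scaling, so the make-up of the receptor RNA was also taken. Erbb3 supplied 40.2% and 47.4% of the summed receptor TPM in Control replicates 1 and 4 and 54.4%, 51.8% and 46.0% in SIGLEC12 replicates 2, 3 and 4. Egfr supplied from 13.6% (SIGLEC12 replicate 2) to 24.7% (SIGLEC12 replicate 4), both within the SIGLEC12 group. The ratio of Erbb3 to Erbb2 TPM was 1.10 and 1.54 in Control and 1.70, 1.69 and 1.57 in SIGLEC12. It did not overlap between the groups, as did the ratio to Erbb2 of 14.3% of tested gene symbols in that direction, and Control replicate 4 and SIGLEC12 replicate 4 lay side by side.

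**Figure D3:**
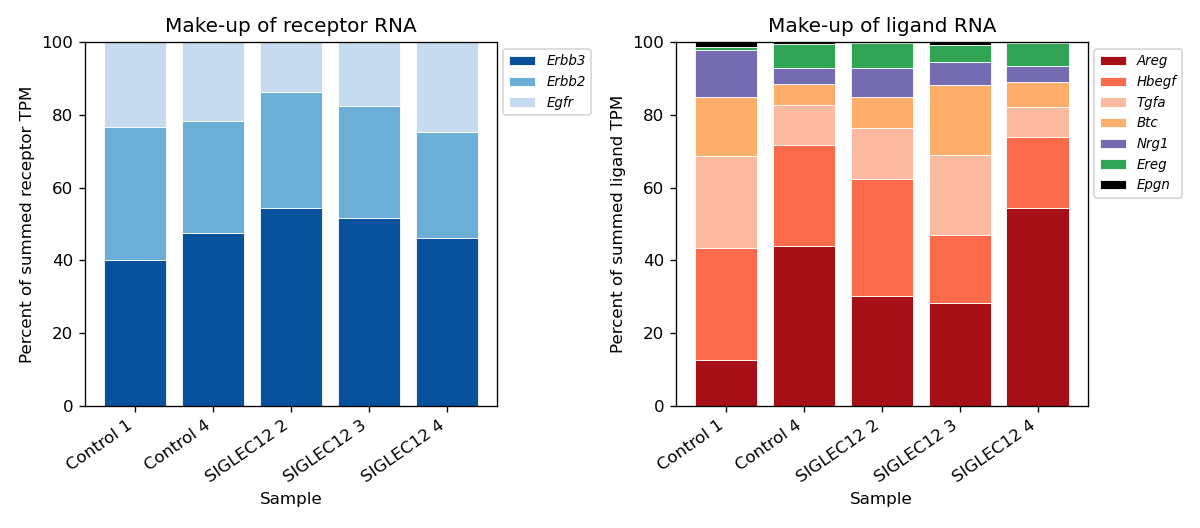
Percent of the summed receptor TPM (left) and of the summed ligand TPM (right) that each gene supplied in each of the 5 samples, as stacked bars that add to the whole. Areg ranges from 12.4% of the ligand RNA in Control replicate 1 to 54.3% in SIGLEC12 replicate 4, while Erbb3 stays between 40.2% and 54.4% of the receptor RNA.

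Of the ligands, 4 lie side by side on chromosome 5 within 375531 bases that hold no other protein-coding gene in GENCODE M21. In order of position these are Epgn (91027464 to 91035215), Ereg (91074622 to 91093646) and Areg (91139599 to 91148432) on the plus strand and Btc (91357261 to 91402994) on the minus strand. Despite this shared location their levels differed widely, with a mean of 6.11 TPM for Areg, 1.32 TPM for Btc, 0.89 TPM for Ereg and 0.04 TPM for Epgn. RefSeq promoter sequences (GRCm38.p6) matched 6 of the 10 members, and the 250 bases before the RefSeq start are shown for 3 of the cluster, because Areg varied most among the samples, Btc was the one member whose groups did not overlap in either scaling, and Epgn was nearly silent beside them. Both strands were searched for the cAMP response element TGACGTCA, the AP-1 site TGACTCA, the TATA box TATAAA and the GC box GGGCGG, none of which overlapped another here, and capitals mark each match. The Areg window is chr5:91139349-91139598 (plus strand), the Btc window chr5:91402995-91403244 (minus strand) and the Epgn window chr5:91027267-91027516 (plus strand). The RefSeq start of Epgn lies downstream of its GENCODE start given above, so the end of that window is inside the GENCODE gene.
Areg: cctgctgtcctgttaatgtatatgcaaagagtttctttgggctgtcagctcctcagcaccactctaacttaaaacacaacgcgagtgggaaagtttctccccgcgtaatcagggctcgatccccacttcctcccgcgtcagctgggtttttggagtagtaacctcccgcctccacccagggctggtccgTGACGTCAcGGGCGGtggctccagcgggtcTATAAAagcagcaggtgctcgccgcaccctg
Btc: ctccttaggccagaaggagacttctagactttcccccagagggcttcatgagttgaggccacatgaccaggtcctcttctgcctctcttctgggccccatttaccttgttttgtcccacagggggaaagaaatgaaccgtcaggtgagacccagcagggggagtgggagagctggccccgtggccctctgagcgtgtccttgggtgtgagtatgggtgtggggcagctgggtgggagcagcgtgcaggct
Epgn: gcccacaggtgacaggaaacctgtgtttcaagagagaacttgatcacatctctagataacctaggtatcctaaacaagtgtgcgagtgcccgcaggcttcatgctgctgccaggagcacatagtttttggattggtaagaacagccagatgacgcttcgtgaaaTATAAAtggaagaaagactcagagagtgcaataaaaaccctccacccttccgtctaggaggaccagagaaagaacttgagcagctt

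The Areg window held TGACGTCA beginning 61 bases before the start, GGGCGG at 52 bases and TATAAA at 31 bases. Of 32851 promoter windows of the same length, 1.55% held TGACGTCA, 32.7% GGGCGG and 12.4% TATAAA on either strand. The Epgn window held TATAAA at 86 bases before the RefSeq start. That match is also upstream of the GENCODE start of Epgn and lies nearer to it. TATAAA was not found in the Btc window. TGACTCA, held by 4.46% of windows, was in none of the 3.

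Areg encodes amphiregulin, an EGF receptor ligand of injured and regenerating mucosa. It stood at 0.59 in Control replicate 1 and 3.06 in replicate 4, and at 2.48, 1.82 and 4.05 in SIGLEC12 replicates 2, 3 and 4, or 0.51, 7.37, 4.59, 2.52 and 15.6 TPM in the same order. Control replicate 4 had more Areg than 2 of the 3 SIGLEC12 samples, and the 2 Control samples differed by 2.47, more than any other member. The log2 fold change of 0.96 (SE 0.87, adjusted p = 0.426 in limma) had a 95% interval of -1.14 to 3.05. It was 0.59 after rescaling (adjusted p = 0.769 in limma), -0.28 without Control replicate 1 and 2.19 without Control replicate 4.

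Ereg encodes epiregulin, a ligand of EGFR and ErbB4. It was 0.04 and 1.07 in Control replicates 1 and 4 and 1.03, 0.52 and 1.51 in SIGLEC12 replicates 2, 3 and 4. As deposited, the samples ran in the same order as for Areg. From low to high this was Control replicate 1, SIGLEC12 replicates 3 and 2, Control replicate 4 and SIGLEC12 replicate 4. It was shared by Egfr and by 2.98% of tested gene symbols. After rescaling, Areg and Ereg kept this order and Egfr did not, its lowest sample being SIGLEC12 replicate 3. The groups overlapped, with a log2 fold change of 0.46 (SE 0.40, adjusted p = 0.401 in limma), 0.29 after rescaling and -0.05 without Control replicate 1. Areg exceeded Ereg by a TPM ratio of 4.37 to 16.1.

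Hbegf encodes the heparin-binding ligand of EGFR and ErbB4, a product of stressed and migrating epithelium. It was 1.18 and 2.49 in Control replicates 1 and 4 and 2.56, 1.43 and 2.73 in SIGLEC12 replicates 2, 3 and 4. Control replicate 1 and SIGLEC12 replicate 3 formed the low end and the other 3 samples lay close together. The log2 fold change was 0.40 (SE 0.51, adjusted p = 0.559 in limma), 0.01 after rescaling and -0.25 without Control replicate 1.

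Tgfa, the gene of the epithelial EGFR ligand TGF-α, reached 1 TPM in all 5 samples, as did Hbegf, but varied less. Its values were 1.03 and 1.51 in Control replicates 1 and 4 and 1.65, 1.56 and 1.75 in SIGLEC12 replicates 2, 3 and 4. The groups did not overlap, but Control replicate 4 lay close to the SIGLEC12 samples. The log2 difference was 0.39 (SE 0.19, adjusted p = 0.192 in limma), close to that of the median gene, and 0.04 after rescaling (adjusted p = 0.907 in limma).

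Btc encodes betacellulin, a ligand of EGFR and ErbB4. It was 0.73 and 0.98 in Control replicates 1 and 4 and 1.19, 1.45 and 1.56 in SIGLEC12 replicates 2, 3 and 4. All SIGLEC12 samples lay above both Control samples. The means were 0.86 ± 0.17 (SD, n = 2) and 1.40 ± 0.19 (SD, n = 3), a log2 difference of 0.55 (SE 0.19, limma p = 0.0248, adjusted p = 0.112, exact permutation p = 0.1, the smallest that 5 samples allow) with a 95% interval of 0.09 to 0.996. After rescaling the change was 0.26 (SE 0.15, limma p = 0.142, adjusted p = 0.507, exact permutation p = 0.2), and SIGLEC12 replicate 2 then lay only just above Control replicate 4. No member of the family had an unadjusted limma p of at most 0.05 after rescaling, against 4.45% of all tested genes that were higher and 6.31% that were lower.

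Nrg1, the gene of neuregulin 1, a ligand of ErbB3 and ErbB4 made largely by stromal cells, was 0.62 and 0.81 in Control replicates 1 and 4 and 1.16, 0.65 and 1.19 in SIGLEC12 replicates 2, 3 and 4. The groups overlapped through SIGLEC12 replicate 3, and the log2 fold change was 0.29 (SE 0.23, adjusted p = 0.361 in limma), 0.05 after rescaling. Nrg1 (chromosome 8, 31814551 to 32884029, minus strand) has many annotated transcripts, and how these were combined into 1 gene value is not stated. The 7 fibroblast markers summed to 9.43 and 10.9 TPM in Control and to 59.0, 18.4 and 24.8 TPM in SIGLEC12 replicates 2, 3 and 4. Only 3 of the 7 had all SIGLEC12 samples above Control. Col1a1 was lower in SIGLEC12 replicate 3 (1.43 TPM) than in Control replicates 1 and 4 (2.08 and 1.78 TPM). The part of fibroblasts in the Nrg1 values was not tested. Epgn, the gene of epigen, another EGFR ligand, lay between 0.02 and 0.09 in all 5 samples, that is, at no more than 0.06 TPM. It showed no level from which a difference could be read.

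The summed ligand RNA varied widely within both groups. Summed over the 7 ligands it was 4.09 and 16.7 TPM in Control replicates 1 and 4 and 15.2, 8.96 and 28.7 TPM in SIGLEC12 replicates 2, 3 and 4. Per TPM of receptor RNA this made 0.29 and 0.90 in Control and 0.55, 0.46 and 1.27 in SIGLEC12, so the groups overlapped on this scale-free ratio too. Areg was the largest ligand share in Control replicate 4 (44.0%), SIGLEC12 replicate 3 (28.2%) and SIGLEC12 replicate 4 (54.3%). Hbegf led in Control replicate 1 (30.98%) and in SIGLEC12 replicate 2 (32.2%, beside 30.2% for Areg).

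Some genes that restrain this pathway ran in a sample order close to that of Areg, and others did not. Among those others, Cbl was highest in Control replicate 4 and Ptpn1 was lowest in SIGLEC12 replicate 3. Errfi1, the gene of the EGFR inhibitor MIG6, and Dusp6, the gene of an ERK phosphatase, were picked for this description after their values were seen. Errfi1 was 1.43 and 2.89 in Control replicates 1 and 4 and 3.02, 2.26 and 3.55 in SIGLEC12 replicates 2, 3 and 4. Dusp6 was 0.96 and 2.68 in Control and 3.07, 2.27 and 3.60 in SIGLEC12. As deposited, both ran from Control replicate 1 through SIGLEC12 replicate 3, Control replicate 4 and SIGLEC12 replicate 2 to SIGLEC12 replicate 4. This was the order of Hbegf, Nrg1 and 5.97% of tested gene symbols. After rescaling, Hbegf and Nrg1 left this order, with SIGLEC12 replicate 3 lowest in both. The orders given next are also as deposited. Krt20, a keratin of differentiated colonocytes, ran in the order of Areg, from 3.40 in Control replicate 1 to 5.83 in SIGLEC12 replicate 4. Vil1, also on the columnar list, ran in that order too, from 2.84 in Control replicate 1 to 4.91 in SIGLEC12 replicate 4. Not all columnar markers did. Car1, the gene of a colonocyte carbonic anhydrase, was highest in Control replicate 4 (6.70) and lowest in SIGLEC12 replicate 4 (4.56), and Slc26a3, the gene of a colonocyte chloride exchanger, was 3.32 and 4.61 in Control replicates 1 and 4 and 2.53, 2.04 and 2.82 in SIGLEC12 replicates 2, 3 and 4. The columnar marker sum was lowest in Control replicate 1 (462 TPM) and highest in SIGLEC12 replicate 4 (2107 TPM), as Areg was, and its part in the ligand values was not tested. In bulk tissue, fewer cells of a type and less RNA per cell cannot be told apart.

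**Figure D4:**
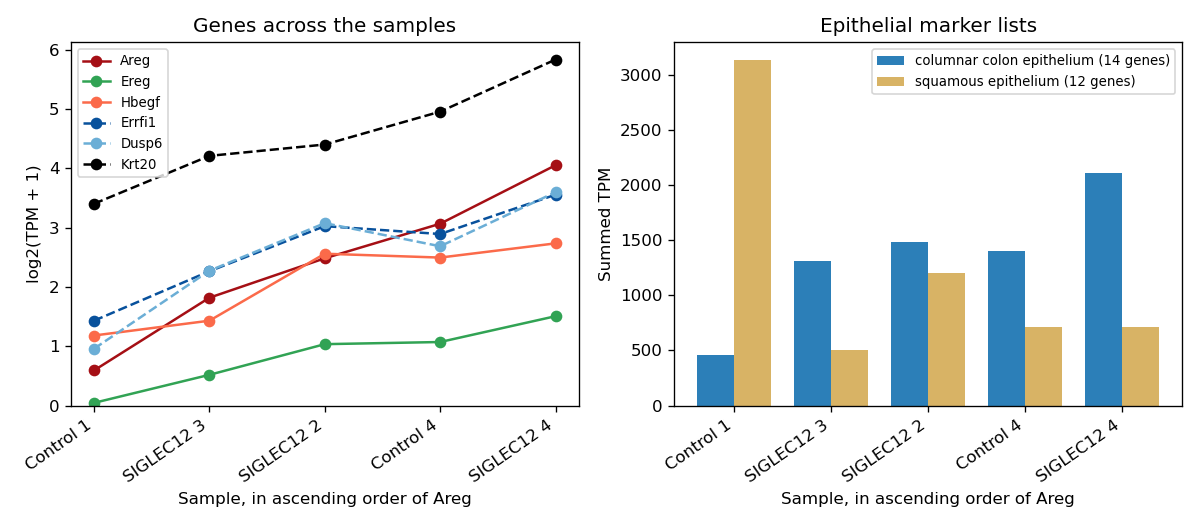
Left, log2(TPM + 1) of 3 ligand genes (solid lines), Errfi1, Dusp6 and Krt20 (dashed lines) in the 5 samples, ordered by Areg. Right, summed TPM of the columnar and squamous marker lists in the same order, with Control replicate 1 lowest in columnar RNA (462 TPM) and highest in squamous RNA (3139 TPM).

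The tested genes whose profile over the 5 samples was most like each member were found by the root mean square (RMS) difference of mean-centred log2(TPM + 1), among 2827 genes with a mean of at least 5 TPM. For Areg these were Ly6g, Clca4a and Krt20, with RMS differences of 0.34, 0.35 and 0.39 against a range of 3.46 for Areg itself. Ly6g is also on the list of 5 neutrophil markers. They summed to 21.6 and 25.0 TPM in Control replicates 1 and 4. In SIGLEC12 replicates 2, 3 and 4 the sum was 24.5, 44.6 and 53.5 TPM. Ly6g itself made 4.30 and 17.4 TPM of this in Control and 15.1, 14.4 and 44.8 TPM in SIGLEC12. S100a8, S100a9, Csf3r and Cxcr2 of the same list were instead higher in Control replicate 1 than in Control replicate 4. The part of neutrophils in the Areg values was not tested. On this scale Ereg was matched more closely, by Cnnm4 and Ezr (RMS 0.03 and 0.08 over a range of 1.46). Ereg lay between 0.03 and 1.84 TPM, where the pseudocount narrows changes, so this closeness holds only for log2(TPM + 1). Hbegf was nearest to Mir8116 and the mucin gene Muc2 (RMS 0.11 and 0.16). Erbb3 was nearest to Retreg1, Ctdsp2 and Acadm (RMS 0.07 to 0.08). Erbb2 was nearest to Eif4b, Etl4 and Clstn1 (RMS 0.06 to 0.08) and Egfr to Birc6, Hnrnpu and Zc3h11a (RMS 0.03 to 0.04). The neighbours of Tgfa were Ssbp3, Cul1 and Csta1, those of Btc were Stk16, Psmc4 and Mal2, and those of Nrg1 were Rnf10, Khsrp and Sept9. Small differences are easily reached for these members, whose ranges were 0.57 to 0.83.

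The other genes of the family were at or near 0. The receptor gene Erbb4 lay between 0.00 and 0.04, the neuregulin genes Nrg2 and Nrg3 between 0.02 and 0.13 and between 0 and 0.01, Nrg4 between 0.10 and 0.37, and the gene of EGF itself, Egf, between 0.26 and 0.45. None of these 5 genes entered the test.

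The wider pathway was read from 4 further lists, which with the 5 genes just named held 70 genes, of which 62 were tested. With limma, 0 of the 62 passed an adjusted p under 0.05 with 2-fold. As deposited 11 of the 62 had an unadjusted p of at most 0.05 and were higher, against 33.4% of all tested genes, and 24 of the 62 had groups that did not overlap with SIGLEC12 above, against 54.1%. After rescaling, 1 of the 62 did not overlap with SIGLEC12 above, against 15.6%, and 13 with SIGLEC12 below, against 16.8%. In the higher direction these shares were under the background in both scalings.

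**Figure D5:**
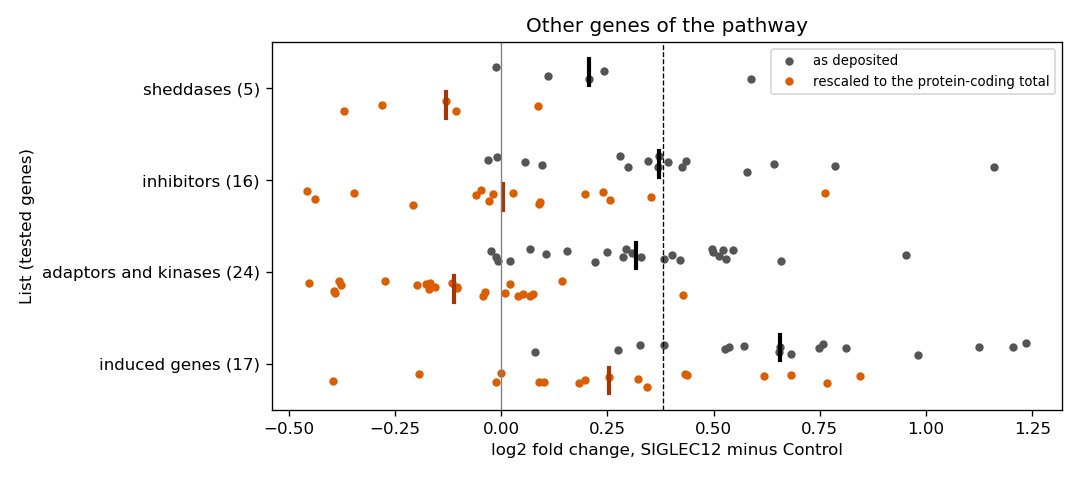
Log2 fold change of SIGLEC12 minus Control for the tested genes of the 4 pathway lists, 1 point per gene, as deposited (grey) and after rescaling (orange), with a thick bar at each list's median. The dashed line is the median of all tested genes as deposited, 0.38; the medians of the lists run from 0.21 to 0.66 as deposited and from -0.13 to 0.25 after rescaling.

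The sheddases and their partners had a median log2 fold change of 0.21 over 5 genes, and -0.13 after rescaling. Adam10, the gene of a protease that releases betacellulin, was 3.14 and 3.23 in Control replicates 1 and 4 and 3.61, 3.78 and 3.93 in SIGLEC12 replicates 2, 3 and 4. These groups did not overlap, and the 2 Control samples were close. The log2 fold change of Adam10 was 0.59 (SE 0.20, adjusted p = 0.109 in limma) as deposited and 0.09 after rescaling. Rhbdf2, an iRhom that matures ADAM17, changed by 0.24 (adjusted p = 0.294 in limma) and Bace1 by 0.21 (adjusted p = 0.352 in limma). Both turned after rescaling, to -0.13 for Rhbdf2, with all SIGLEC12 samples below Control, and to -0.11 for Bace1, with overlap.

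The 16 tested inhibitors had a median of 0.37, and 0.00 after rescaling. Ptpn2, a phosphatase gene, changed by 0.39 (SE 0.15, adjusted p = 0.131 in limma) and by -0.02 after rescaling, Lrig1 by 0.64 (SE 0.28, adjusted p = 0.154 in limma) and Spry1 by 0.43 (SE 0.19, adjusted p = 0.166 in limma). Lrig1 and Spry1 changed by 0.24 and 0.20 after rescaling. Spry1 was under 1 TPM in both Control samples and passed the filter only through SIGLEC12 replicates 2 and 4. Lrig1, which promotes loss of ErbB receptors and marks crypt stem cells, overlapped between the groups, with 1.33 and 2.12 in Control replicates 1 and 4. Without Control replicate 1 its change was 0.25.

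The 24 adaptors and kinases had a median of 0.32, and -0.11 after rescaling. Mapk3, the gene of ERK1, was 3.74 and 4.32 in Control replicates 1 and 4 and 4.97, 4.98 and 5.01 in SIGLEC12 replicates 2, 3 and 4. The SIGLEC12 samples were nearly equal and above both Control samples, in both scalings. The log2 fold change of Mapk3 was 0.95 (SE 0.25, limma p = 0.00749, adjusted p = 0.0974, exact permutation p = 0.1) as deposited, 0.43 after rescaling (limma p = 0.0747) and 0.66 without Control replicate 1. Of the 62 genes it was the one whose groups did not overlap with SIGLEC12 above after rescaling. Araf, the gene of a kinase upstream of MEK, changed by 0.51 (SE 0.16, adjusted p = 0.104 in limma), and by 0.07 after rescaling.

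The 17 tested genes that EGF receptor signalling can induce had the highest median of the 4 lists, 0.66, and 0.25 after rescaling. They were also the list that moved most with Control replicate 1, with a median of 0.25 as deposited without it and 1.13 without Control replicate 4. Ccnd1, the gene of cyclin D1, changed by 0.81 (SE 0.26, adjusted p = 0.104 in limma), and by 0.34 after rescaling. Ier2 changed by 0.66 (SE 0.25, adjusted p = 0.124 in limma), and by 0.18 after rescaling. Ier3 was 1.35 in Control replicate 1, 3.13 in Control replicate 4 and 3.30, 3.57 and 3.47 in SIGLEC12 replicates 2, 3 and 4. Its log2 fold change of 1.20 (SE 0.49, adjusted p = 0.138 in limma) was 0.77 after rescaling and 0.31 as deposited without Control replicate 1.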

How the data were processed

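The authors deposited 1 table of log2(TPM + 1) values, the log2 of TPM with a pseudocount of 1, for 52143 mouse genes in 5 columns, each matched to a sample by its title. Undone, each column sums to between 999999 and 1000001 TPM. The submitters' processing notes name kallisto 0.45.0 and GRCm38. The study's methods state another kallisto version with a human reference, featureCounts, and 3 technical libraries per sample. Whether columns average these, and the annotation release, are not stated. GENCODE M21 held 98.45% of the gene identifiers. Value columns left unused numbered 0. Replicates are mice.

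Genes with at least 1 TPM in at least 2 samples (10338) entered limma 3.58.1 (R 4.3.3, lmFit and eBayes with trend) and Benjamini-Hochberg adjustment over all of them, at an adjusted p under 0.05 and 2-fold, two-sided. The pseudocount understates changes of low genes. TPM keeps no depth. The fit was tested on simulated data. An exact permutation test over the 10 groupings of 5 samples cannot give a p under 0.1. Repeated symbols kept the row of highest mean. Of each pathway list the 3 genes with the smallest p were named, and for each member the 3 genes of nearest profile, provisional names aside, and some of these are not reported here. Members and lists were chosen with earlier results of these data known. Alternatives were another pseudocount (0.1), no filter, a filter of 5 TPM, 3 scalings, no trend and leaving out each sample.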

Additional observations from a re-analysis of the deposited data

How the results depend on the processing

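No paired analysis was possible because replicate 4 is the one number found in both groups. Leaving out a Control sample leaves 1, which limma then assumes to vary like the SIGLEC12 samples.

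No member passed an adjusted p under 0.05 with 2-fold under any alternative run (adjusted p from 0.0607 to 1). Erbb3, Tgfa, Btc and Nrg1 stayed higher in SIGLEC12 under every alternative that tested them. Erbb3 was higher by 0.13 to 0.94, Btc by 0.25 to 0.94, Tgfa by 0.04 to 0.63 and Nrg1 by 0.03 to 0.55. The filter of 5 TPM did not test Tgfa, Btc or Nrg1. Egfr and Erbb2 turned to -0.29 and -0.14 after the rescaling, -0.25 and -0.13 under quantile normalization, and -0.30 and -0.15 with median-ratio size factors, settings that set the common shift of all genes to near 0. Areg, Ereg and Hbegf turned to -0.28, -0.051 and -0.25 without Control replicate 1, and reached 2.19, 0.97 and 1.06 without Control replicate 4. Egfr ran from -0.021 (without SIGLEC12 replicate 4) to 0.28 (without Control replicate 4).

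Over all genes, leaving out 1 sample moved the adjusted counts between 0 and 962 (higher) and between 0 and 97 (lower), against 0 and 0 with all samples. The 962 and 97 came without Control replicate 4, and 1 higher gene without SIGLEC12 replicate 4; the cause was not tested. At an unadjusted p of at most 0.05 with 2-fold there were 410 higher and 46 lower. These became 1087 higher with a pseudocount of 0.1, which widens changes of low genes, 38 and 142 after rescaling, 45 and 131 under quantile normalization and 46 and 139 with size factors. The fewest higher genes with 1 sample left out were 143, when Control replicate 1 was omitted, and the most 1366, when Control replicate 4 was. The lower genes numbered 51 to 146. Members at this threshold numbered 0, and from 0 to 1 with 1 sample left out (Areg, without Control replicate 4). Pathway genes numbered 1 (Ier3), 0 with no filter or under the 3 scalings, and from 0 to 12 with 1 sample left out. At the adjusted threshold they numbered 0, and from 0 to 8 with 1 sample left out, the 12 and 8 without Control replicate 4. The exact permutation test cannot pass 0.05 here. A filter of 5 TPM kept 3 members (Erbb3, Erbb2 and Areg).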

Other observations

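The receptors were also read per unit of columnar epithelial RNA, with Epcam, the gene of a surface protein of columnar epithelium, as the denominator. Squamous epithelium is not measured by it. Egfr equalled 11.1% and 5.15% of the Epcam TPM in Control replicates 1 and 4 and 3.26%, 2.82% and 4.204% in SIGLEC12 replicates 2, 3 and 4. The SIGLEC12 values lay below both Control values, as they did for 52.3% of tested gene symbols. Against Krt8, a simple epithelial keratin, Egfr made 5.99% and 2.18% in Control and between 1.39% and 1.66% in SIGLEC12, below as well, against 32.5% of gene symbols. As a percentage of Epcam, Erbb3 overlapped between the groups (19.1% and 11.2% in Control, 7.83% to 13.1% in SIGLEC12). So did Erbb2 (17.3% and 7.30% in Control, 4.94% to 7.68% in SIGLEC12). Areg overlapped too (1.73% and 9.39% in Control, 2.10% to 11.8% in SIGLEC12). Against Krt8, Erbb3 and Erbb2 overlapped as well. These ratios were chosen after the values were seen.

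Markers of several other cell types were read in the same samples. None of the 7 T cell and innate lymphoid markers and none of the 7 mast cell markers reached 1 TPM in 2 samples, and the former summed to 1.03 to 2.10 TPM with groups that overlapped. The mast cell markers summed to 0.65 and 1.20 TPM in Control replicates 1 and 4. In SIGLEC12 replicates 2, 3 and 4 they summed to 9.37, 2.53 and 1.33 TPM. As deposited these sums did not overlap, as with 54.1% of all tested genes, but both replicates 4 lay close together. Of the 7 markers, 5 had all SIGLEC12 samples above Control. Cpa3 and Mcpt2 were lower in SIGLEC12 replicate 4 than in Control replicate 4. The sums were not rescaled. The part of these cells in the ligand values was not tested. Endothelial markers summed to 0.89 and 0.95 TPM in Control and to 4.26, 1.82 and 2.40 TPM in SIGLEC12 replicates 2, 3 and 4, and nerve and glia markers to between 0.20 and 0.72 TPM in the 5 samples. The 5 smooth muscle markers summed to 38.2 to 97.8 TPM, the 7 macrophage and monocyte markers to 7.37 to 30.0 TPM and the 5 neutrophil markers to 21.6 to 53.5 TPM, each with groups that overlapped.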
